A study of Mus musculus with 20 samples.

Results

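A set of 6 genes commonly used to read the fasting response of the liver receptor PPARA was described in livers of mice on a low-fat or a high-fat diet: Pdk4, Fgf21, Vnn1, Vnn3, Ucp2 and Creb3l3. They were chosen by name, and every probe set whose platform annotation gives exactly 1 gene symbol, that of a member, was taken. Of the 6 genes, 5 had such a probe set, with 2 for Vnn1, which made 6 of 45037 probe sets that are not controls. Ucp2, a mitochondrial carrier, had no probe set with that symbol alone in the annotation used and was not analysed here. The animals were male C57BL/6J mice, an inbred strain, bought at 3 weeks of age, acclimatised for 1 week on the low-fat diet and 8 weeks old at sampling per the labels. For 4 weeks 10 of them stayed on the diet with 10% of energy from fat and 10 received a diet with 45% of energy from fat. All 20 were fasted for 16 h before the livers were taken, so no fed liver was measured and the size of the fasting response itself cannot be read from these data. Each liver was measured on its own Affymetrix array, so that each value below belongs to 1 mouse.

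PPARA is a nuclear receptor that binds fatty acids and their derivatives and, paired with RXRA, turns on genes of fatty acid oxidation and ketone body formation in the fasted liver. Pdk4 encodes a kinase that inhibits the pyruvate dehydrogenase complex and so spares pyruvate. Fgf21 encodes a hormone that the fasted liver releases into the blood. Vnn1 and Vnn3 belong to the vanin family of pantetheinases, which release pantothenate, the vitamin precursor of coenzyme A. Creb3l3 encodes CREBH, a transcription factor of liver and intestine that is held in the endoplasmic reticulum membrane until it is cut free, and that cooperates with PPARA at Fgf21.

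Promoter windows from RefSeq (build GRCm38.p6), running from 250 bases before to 50 bases after an annotated start site, were matched by symbol for 5 of the 6 members, in 6 windows, 2 of them for Creb3l3. The windows below are those of the members measured here, given because the members are read as targets or partners of the same factors. Capitals mark every match, on either strand, to AGGTCA (the hexamer bound by nuclear receptors), to a direct repeat of AGGNCA with 1 base between the copies (the type of element that PPARA and RXRA bind together), to TGACG (the core of the cAMP response element, also held within the full element TGACGTCA) or to GTAAACA (a forkhead site).
Pdk4, chr6:5496229-5496528, minus strand: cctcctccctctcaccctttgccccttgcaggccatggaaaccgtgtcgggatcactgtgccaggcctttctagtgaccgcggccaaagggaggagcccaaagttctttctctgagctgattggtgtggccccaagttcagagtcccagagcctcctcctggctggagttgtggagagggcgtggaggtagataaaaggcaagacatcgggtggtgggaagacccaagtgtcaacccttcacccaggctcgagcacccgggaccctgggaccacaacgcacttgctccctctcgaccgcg
Fgf21, chr7:45615441-45615740, minus strand: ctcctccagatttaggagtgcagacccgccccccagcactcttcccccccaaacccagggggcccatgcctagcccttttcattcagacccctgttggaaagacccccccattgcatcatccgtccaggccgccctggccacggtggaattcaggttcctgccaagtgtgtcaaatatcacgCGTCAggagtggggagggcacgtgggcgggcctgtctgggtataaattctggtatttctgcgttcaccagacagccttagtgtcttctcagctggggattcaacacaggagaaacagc
Vnn3, chr10:23851212-23851511, plus strand: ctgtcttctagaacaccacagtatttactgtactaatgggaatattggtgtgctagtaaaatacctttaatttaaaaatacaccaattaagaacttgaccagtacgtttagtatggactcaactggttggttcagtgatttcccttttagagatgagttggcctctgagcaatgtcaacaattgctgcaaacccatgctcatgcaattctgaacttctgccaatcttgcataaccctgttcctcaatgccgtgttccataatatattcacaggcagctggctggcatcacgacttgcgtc
Creb3l3, chr10:81092542-81092841, minus strand: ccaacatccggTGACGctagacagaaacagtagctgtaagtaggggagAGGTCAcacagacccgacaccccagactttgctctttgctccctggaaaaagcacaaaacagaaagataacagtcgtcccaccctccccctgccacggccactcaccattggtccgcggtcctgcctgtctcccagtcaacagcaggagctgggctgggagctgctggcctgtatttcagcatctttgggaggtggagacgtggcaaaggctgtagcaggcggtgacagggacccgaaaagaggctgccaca
The Fgf21 window held TGACG on the opposite strand, its match beginning at position -68 from the start site. This Creb3l3 window held AGGTCA at -202 and TGACG at -239. The Pdk4 and Vnn3 windows, and the other Creb3l3 window (chr10:81098823-81099122), held none of the motifs. Of 32851 promoter windows of the same length, 16.3% held AGGTCA, 0.381% the direct repeat, 20.8% TGACG, 1.79% TGACGTCA and 3.65% GTAAACA. A match of letters is no evidence of binding, and a window without one says nothing about sites elsewhere.

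The deposited values are probe set scores, and the sources used here do not say how they were made. They run from 5.18 to 15 like a log2 intensity, but the median SD within diets was only 1.15e-05, and the SDs of the member probe sets differed by up to 2120 times, from 8.91e-06 for Creb3l3 to 0.0188 for Fgf21. Score differences are not fold changes, and their sizes cannot be set side by side for different genes. Each mouse is given instead as a standardised score, its distance from the low-fat mean in SDs within diets. A standardised difference is the high-fat minus the low-fat mean on that scale, and its 95% interval rests on the noncentral t distribution. Each high-fat mouse was also paired with each low-fat mouse, and the number of those 100 pairs with the higher score on the high-fat side is given, since it needs only the order of the mice. All of these take the score of a probe set to rise with its transcript, which was not tested.

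Of the 6 member probe sets 0 passed an adjusted p of 0.05 between diets by limma with Benjamini-Hochberg adjustment over all probe sets. Of all probe sets 2.32% passed, 1.11% as higher and 1.2% as lower on the high-fat diet. At an unadjusted limma p under 0.05 there were 2, Vnn3 and Creb3l3, where 15.1% of all probe sets lay. The exact rank sum test gave 0 after adjustment over all probe sets and 1 before, and permuting the diets over the mice (two-sided) gave 1 at an unadjusted p under 0.05. The diets overlapped in all 6. In whole liver, a change in RNA per cell and a change in the share of a cell type cannot be told apart.

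**Figure D1:**
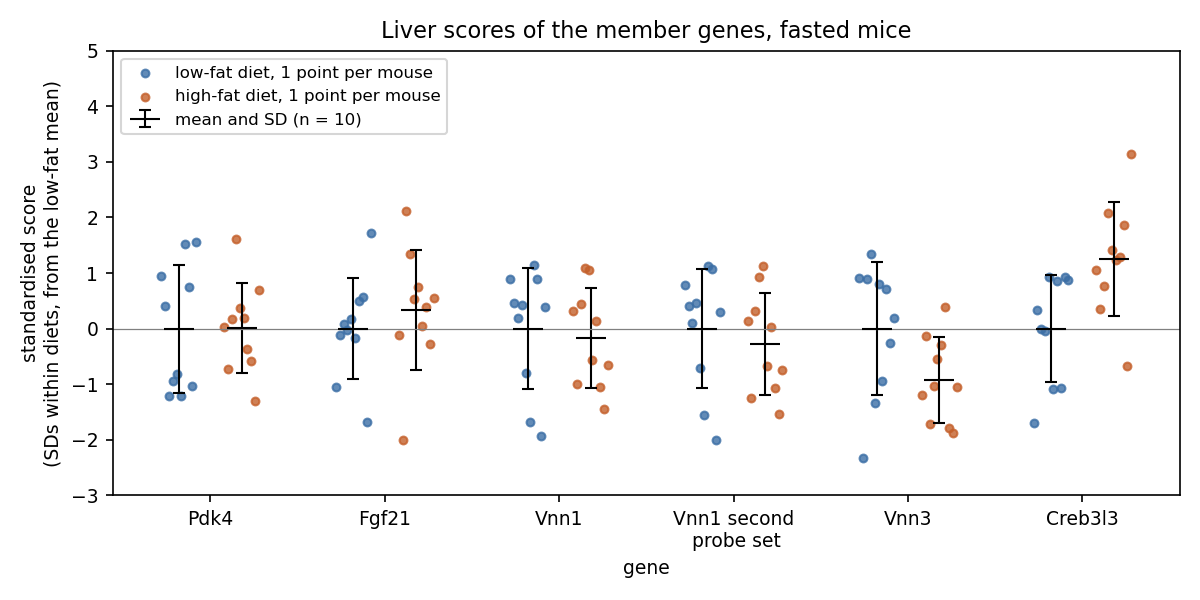
Standardised score (vertical axis, in SDs within diets from the low-fat mean) of each mouse for the 6 member probe sets, low-fat mice in blue and high-fat mice in orange, with the mean and SD of each group of 10. The groups overlap for every probe set; for Creb3l3, 7 of 10 high-fat mice lie above the highest low-fat mouse, and for Vnn3 all 10 lie below the low-fat median of 0.46.

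Pdk4 (probe set 1417273_at) had nearly the same mean on both diets. Its deposited score was 7.90 ± 0.018 in the low-fat and 7.90 ± 0.0128 in the high-fat mice (mean ± SD, n = 10 each). The low-fat mice ran from -1.22 over a median of -0.20 to 1.55, and the high-fat mice from -1.31 over 0.10 to 1.61. The low-fat mice fell on either side of a gap, 5 of them at -0.81 or lower and 5 at 0.41 or higher, whereas the high-fat mice had no such gap. The standardised difference was 0.01 (95% interval -0.87 to 0.89, limma adjusted p = 0.996), and the high-fat mouse was higher in 51 of 100 pairs.

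Of 12 measured genes of the pyruvate dehydrogenase complex, its other kinases, its phosphatases and the pyruvate carrier, 1 fell and 0 rose. With 1 probe set for each gene, 3.49% of all 18193 genes passed, 1.71% as higher and 1.78% as lower. The median standardised difference of the list was 0.00, beside 0.04 over all genes. The gene that fell was Pdpr, the regulatory subunit of the phosphatase that opposes Pdk4. Its high-fat mice ran from -4.05 over -2.13 to -0.70 and its low-fat mice from -1.36 over -0.13 to 1.82, a standardised difference of -2.11 (-3.20 to -0.98, limma adjusted p = 0.012). The call rests on 1 probe set: the 3 others of Pdpr did not pass, and after quantile normalisation the adjusted p was 0.461. Pdk1, another pyruvate dehydrogenase kinase, stood at -1.40 (-2.37 to -0.40, limma adjusted p = 0.085), and Pdk2 at -0.63 (-1.52 to 0.28, limma adjusted p = 0.514). Of the 12 genes 6 lay above 0, among them Pdk3 at 0.29 (-0.59 to 1.17) and Pdhb at 0.78 (-0.14 to 1.69).

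Fgf21 (1422916_at) did not pass either. Its deposited score was 7.44 ± 0.0172 in the low-fat and 7.44 ± 0.0204 in the high-fat mice (mean ± SD, n = 10 each). The low-fat mice ran from -1.68 over 0.04 to 1.72, and the high-fat mice from -2.0 over 0.46 to 2.11. The lowest and the highest of all 20 mice were both on the high-fat diet, replicates 2 and 3. The standardised difference was 0.33 (-0.55 to 1.21, limma adjusted p = 0.781), with the high-fat mouse higher in 62 of 100 pairs. It was 0.15 without high-fat replicate 3, 0.71 without high-fat replicate 2 and 0.14 with array weights.

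Among 10 genes of the FGF21 receptor chain, related FGF ligands and the protease Fap, which cleaves FGF21, 1 fell and 0 rose, with a median of 0.16. It was Fgfr3, an FGF receptor, at -1.82 (-2.86 to -0.74, limma adjusted p = 0.0256). The other probe set of Fgfr3 stood at 0.40 (limma adjusted p = 0.746 over all probe sets), so the probe sets of this gene point in opposite directions. After quantile normalisation the adjusted p of Fgfr3 was 0.576. Klb, the coreceptor that FGF21 needs, stood at -0.59 (-1.48 to 0.31), and Fgfr1, its main partner, also at -0.59 (-1.48 to 0.31), neither past the threshold. Of the 10 genes 6 lay above 0, among them Fgfr2 at 0.70 (-0.22 to 1.60), Fgfr4 at 0.43 (-0.46 to 1.31) and Kl at 0.70 (-0.21 to 1.60).

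Vnn1, the pantetheinase of the liver that is widely used as a PPARA readout, was measured by 2 probe sets that ranked the mice almost alike. Their Spearman correlation was 0.98 in each diet (n = 10 each, permutation p = 3e-05 in the low-fat and 2e-05 in the high-fat mice). On the probe set with the higher score (1418486_at) the low-fat mice ran from -1.93 over 0.40 to 1.15 and the high-fat mice from -1.45 over -0.21 to 1.09. On the other (1447845_s_at, whose suffix marks possible cross-hybridisation) they ran from -2.0 over 0.36 to 1.13 and from -1.54 over -0.33 to 1.13. The groups overlapped over most of their range on both probe sets, and the low-fat mice reached lower, with low-fat replicates 6 and 9 the lowest on the first. The standardised differences were -0.17 (-1.04 to 0.71, limma adjusted p = 0.905) and -0.27 (-1.15 to 0.61, limma adjusted p = 0.827), with the high-fat mouse higher in 43 and 40 of 100 pairs. Without low-fat replicate 9 they were -0.42 and -0.55, without high-fat replicate 9 -0.03 and -0.14, and with array weights -0.37 and -0.46.

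Vnn3 (1420723_at) was lower in the high-fat mice without passing the threshold. The low-fat mice ran from -2.32 over 0.46 to 1.34, and the high-fat mice from -1.88 over -1.05 to 0.39. All 10 high-fat mice lay below the low-fat median, yet the lowest mouse of all was low-fat replicate 2, so no high-fat mouse lay outside the low-fat range. The standardised difference was -0.92 (-1.84 to 0.01, limma adjusted p = 0.325, permutation p = 0.0544), and the high-fat mouse was higher in 24 of 100 pairs. Without low-fat replicate 2 it was -1.41 (limma adjusted p = 0.127). Centring each array on its median moved the value to -1.79 (limma adjusted p = 0.0164), a setting under which 38220 probe sets were called lower, and quantile normalisation moved it to -0.45 (limma adjusted p = 0.545). Whether the response of Vnn3 differs from that of Vnn1 was not tested, and their intervals overlap.

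In the list of 13 measured genes of pantetheine and coenzyme A metabolism 2 fell and 0 rose, with a median of 0.14. Enpp3, an ectonucleotide pyrophosphatase, stood at -2.08 (-3.17 to -0.96, limma adjusted p = 0.0115), and its 4 other probe sets did not pass, 3 of them below 0. On the mean of all its probe sets Enpp3 stood at -1.30 (limma adjusted p = 0.139). Btd, biotinidase, a relative of the vanins in sequence, stood at -1.66 (-2.67 to -0.61, limma adjusted p = 0.0415). That call was lost in 15 of 20 fits with a single array removed (the highest adjusted p, 0.073, came without low-fat replicate 5) and after quantile normalisation (0.199).

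Creb3l3 (1424688_at) had the widest separation of the diets among the members, and it also did not pass. Its low-fat mice ran from -1.69 over 0.16 to 0.93, and its high-fat mice from -0.68 over 1.25 to 3.15. Of the high-fat mice 9 of 10 lay above the low-fat median and 7 above every low-fat mouse; the exception was replicate 9, at -0.68. The standardised difference was 1.25 (0.27 to 2.20, limma adjusted p = 0.16, permutation p = 0.0118), with the high-fat mouse higher in 85 of 100 pairs. Without high-fat replicate 9 it was 1.62 (limma adjusted p = 0.0775). The direction depended on scaling: it was -0.13 after quantile normalisation (limma adjusted p = 0.877) and -1.07 after median centring (limma adjusted p = 0.0318), and stayed at 1.23 after centring on standardised values (limma adjusted p = 0.0855). The deposited difference, 1.11e-05, is smaller than the difference of 7.33e-05 between the array medians that median centring takes from every probe set.

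**Figure D2:**
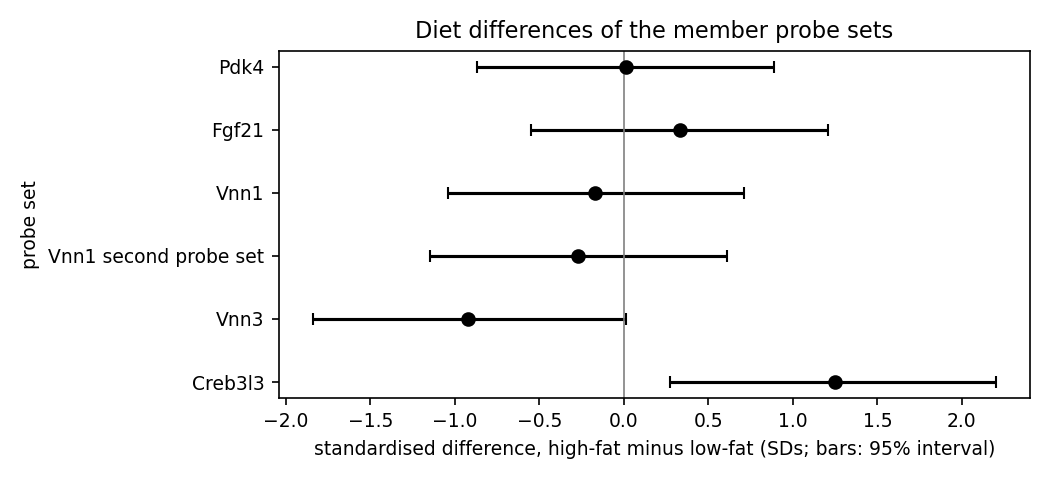
Standardised difference between diets (horizontal axis, high-fat minus low-fat, in SDs within diets) of the 6 member probe sets, with 95% intervals from 10 mice per diet. The interval of Creb3l3 (0.27 to 2.20) lies above 0, that of Vnn3 ends at 0.01, and those of Pdk4, Fgf21 and both Vnn1 probe sets span 0; no probe set passed after adjustment over all probe sets.

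Of 15 measured genes described as CREBH targets in liver, 3 fell and 0 rose, with a median of -0.02. They were Apoc2, the cofactor of lipoprotein lipase (-5.18, limma adjusted p = 1.85e-06; -2.05 and 0.00918 after quantile normalisation), Apoa4, an apolipoprotein (-1.86, limma adjusted p = 0.0221), and Apcs, the plasma protein serum amyloid P (-1.78, limma adjusted p = 0.0282). Both probe sets of Apoa4 passed, at -1.86 and -2.06. The call of Apcs was lost in 2 of 20 such fits (0.0546 without low-fat replicate 8 and 0.0513 without high-fat replicate 4) and after quantile normalisation (0.0998). Lpl, lipoprotein lipase, stood at -1.57 (-2.57 to -0.54, limma adjusted p = 0.0539), and Apoa5 at -1.01 (-1.93 to -0.06, limma adjusted p = 0.261). Of the 15 genes 7 lay above 0, among them Apoa1 at 1.35 (0.35 to 2.31, limma adjusted p = 0.719) and Apoc3 at 1.11 (0.15 to 2.05, limma adjusted p = 0.721). Their within-diet SDs were only 4.33e-07 and 5.32e-07. With the probe sets of each gene averaged, and after centring on standardised values, 1 gene of the list was called higher and 4 lower. After median centring it was 0 and 8.

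Of the 8 genes for the proteases that release CREBH and for its relatives, 0 passed by limma and 3 had an unadjusted p under 0.05, the same counts as by the rank sum test. The median of this list was 0.61, but it turned to -0.66 after quantile normalisation (1 called lower) and to -1.15 after median centring (1 higher, 5 lower). With the probe sets of each gene averaged 1 was called higher and the median was 0.61. Creb3l2, a relative of CREBH, stood at 1.31 (0.32 to 2.26, limma adjusted p = 0.111), Creb3 at 1.24 (0.26 to 2.18, limma adjusted p = 0.135) and Mbtps2, the site-2 protease, at 1.09 (0.13 to 2.03, limma adjusted p = 0.208). For Ucp2 only the relatives can be given: 0 of 9 measured carriers of its family passed by limma and 1 had an unadjusted p under 0.05, again the same counts by the rank sum test. That was Slc25a10, the dicarboxylate carrier, at -1.29 (-2.25 to -0.30, limma adjusted p = 0.117). Slc25a11, the oxoglutarate carrier, stood at -0.62 (-1.51 to 0.29, limma adjusted p = 0.524). After centring on standardised values 1 carrier was called lower, and after median centring 8. Ucp3 stood at 0.15 (-0.73 to 1.03).

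The receptor and its wider target list did not pass either. Ppara itself stood at -0.03 (-0.90 to 0.85, limma adjusted p = 0.985), and of 11 measured genes of PPARA and its partners 0 passed by limma, with 2 at an unadjusted p under 0.05 (rank sum test 0 and 0). Those were Rxra (-0.96, -1.88 to -0.02) and Rxrb (0.97, 0.02 to 1.88), partner receptors of PPARA, whose values lay in opposite directions. Of 31 measured PPARA target genes outside the members 0 passed, and 5 had an unadjusted p under 0.05 by limma and by the rank sum test, where 17.0% of all genes did by limma. Their median was 0.19, which turned to -0.43 after quantile normalisation (1 higher, 2 lower), to -0.94 after median centring (1 higher, 15 lower) and to -0.04 with the probe sets of each gene averaged (0 and 0). Centring on standardised values gave a median of 0.15, with 1 higher and 1 lower. The small positive medians of the FGF21 receptor and pantetheine lists turned below 0 in the same way after quantile normalisation (-0.62 and -0.19) and median centring (-1.30 and -1.33), settings that moved the median over all probe sets from 0.04 to -0.41 and -1.29. Slc27a1, a fatty acid transporter, stood at 1.55 (0.53 to 2.55, limma adjusted p = 0.0562), and Acaa2, a thiolase of mitochondrial oxidation, at -1.49 (-2.47 to -0.47, limma adjusted p = 0.0812). Ehhadh of peroxisomal oxidation (0.31, -0.57 to 1.19), Cyp4a14 of omega oxidation (-0.32, -1.20 to 0.56) and Angptl4, a lipase inhibitor (0.65, -0.26 to 1.54), all classical targets, had intervals that spanned 0. Those of 2 other genes on the list did not, in opposite directions. They were Cd36 at -1.15 (-2.09 to -0.18, limma adjusted p = 0.17) and Fitm1 at 1.15 (0.19 to 2.09, limma adjusted p = 0.168). Of 19 genes of the fasting response of glucose metabolism 0 passed by limma and 1 had an unadjusted p under 0.05 (rank sum test 0 and 2). Creb1 stood at 0.99 (0.05 to 1.91) and Sik1, a kinase induced by glucagon, at 0.82 (-0.11 to 1.73).

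The members varied between mice of 1 diet, and some varied together. Within-diet SDs of the deposited score ranked at the 99.8th percentile of all probe sets for Pdk4 and for Fgf21, at the 99.3rd and 99.5th for the Vnn1 probe sets, at the 85.2nd for Vnn3 and at the 39.7th for Creb3l3; since the compression of scores differs between probe sets, these ranks describe the scores and not the transcripts. Correlations were computed for the 10 pairs among the 5 measured members in each diet, 20 tests in all, and 0 passed after Benjamini-Hochberg adjustment by Pearson or by Spearman, while 3 and 5 had an unadjusted permutation p under 0.05.

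For Pdk4 and Vnn1 the Pearson correlation was 0.72 in the low-fat mice (n = 10, permutation p = 0.0198, adjusted 0.148; Spearman 0.70, permutation p = 0.0304, adjusted 0.14) and 0.74 in the high-fat mice (n = 10, permutation p = 0.0133, adjusted 0.148; Spearman 0.73, permutation p = 0.0199, adjusted 0.14). Without the 2 mice farthest from the median of Pdk4 it was 0.70 and 0.44. For Pdk4 and Fgf21 the Pearson correlation was 0.47 in the low-fat mice (n = 10, permutation p = 0.179, adjusted 0.475). The Spearman correlation there was 0.52 (permutation p = 0.133, adjusted 0.38). Without the 2 farthest mice the Pearson value fell to 0.05. Leaving out the mice most extreme on Pdk4 also narrows its range, so the drop does not show what the value rests on. In the high-fat mice the Pearson correlation was 0.60 (n = 10, permutation p = 0.0658, adjusted 0.288) and stayed at 0.60 without the 2 farthest mice. The Spearman correlation there was 0.78 (permutation p = 0.0103, adjusted 0.14).

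Centred on their diet means and taken over all 20 mice, with permutation within diets, a setting chosen after the within-diet values had been seen, Pdk4 and Vnn1 passed over the 10 pairs (Pearson 0.72, permutation p = 0.0006, adjusted 0.006; Spearman 0.72, permutation p = 0.00095, adjusted 0.0095), with 0.71 left without the 2 farthest mice. Pdk4 and Fgf21 passed by Spearman (0.65, permutation p = 0.00345, adjusted 0.0172) but not by Pearson (0.52, permutation p = 0.0187, adjusted 0.0934; 0.35 without the 2 farthest mice). Vnn1 and Vnn3, members of the same family, stood at 0.09 (Pearson, permutation p = 0.732, adjusted 0.813; Spearman 0.18, permutation p = 0.474, adjusted 0.677; 0.19 without the 2 farthest mice). Pdk4 and Creb3l3 stood at 0.01 in the low-fat (n = 10, permutation p = 0.987, adjusted 0.987; Spearman 0.07, permutation p = 0.865, adjusted 0.892; -0.52 without the 2 farthest mice) and at 0.72 in the high-fat mice (n = 10, permutation p = 0.0223, adjusted 0.148; Spearman 0.72, permutation p = 0.0234, adjusted 0.14; 0.55 without them), a difference between diets that was not tested. Vnn3 and Creb3l3 had a negative correlation in the low-fat mice (n = 10, Spearman -0.68, permutation p = 0.0349, adjusted 0.14). The Pearson value there was -0.59 (permutation p = 0.0719, adjusted 0.288), and -0.67 without the 2 farthest mice. In the high-fat mice they stood at 0.13 (n = 10, Spearman, permutation p = 0.732, adjusted 0.862) and 0.11 (Pearson, permutation p = 0.762, adjusted 0.94). High-fat replicate 9 was the lowest high-fat mouse for 5 of the 6 probe sets, all but Fgf21.

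**Figure D3:**
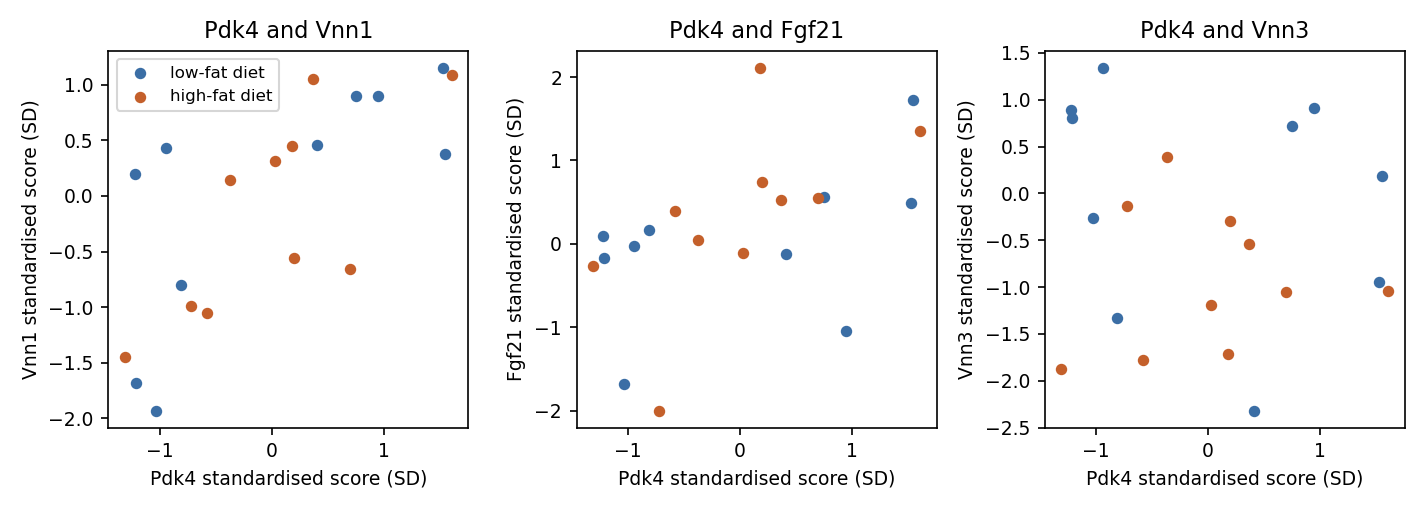
Standardised scores of Vnn1, Fgf21 and Vnn3 (vertical axes, SDs within diets from the low-fat mean) against that of Pdk4 (horizontal axes) in 10 low-fat mice (blue) and 10 high-fat mice (orange). Mice with high Pdk4 had high Vnn1 in both diets (Pearson 0.72 and 0.74 within diets), whereas Vnn3 showed no such slope (-0.22 and 0.09).

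The mean of the 2 within-diet Spearman correlations was also taken between each member and every other gene, as a description with no test. With Pdk4, 27 of the 31 PPARA target genes had a value above 0 and the median was 0.46, beside -0.04 over all 18193 genes. With Fgf21 it was 27 of 31 and 0.34 beside -0.03, with Vnn1 26 of 31 and 0.40 beside -0.03, and with Creb3l3 25 of 31 and 0.27 beside 0.02. With Vnn3 it was 15 of 31 and -0.06 beside 0.01. The target genes with the highest values, picked after they were seen, were Ehhadh (0.73) and Acot1, an acyl-CoA thioesterase (0.72), for Pdk4, and Fabp1, the liver fatty acid binding protein (0.81), for Vnn1. For Fgf21 they were Hadha (0.80) and Hadhb (0.76), the subunits of the mitochondrial trifunctional protein. Cideb, a lipid droplet protein, lay below 0 with Pdk4 (-0.49), Fgf21 (-0.36) and Vnn1 (-0.52). Markers of Kupffer cells and leukocytes moved with the same members: 14 of 14 had a value above 0 with Pdk4 (median 0.27), Fgf21 (0.35) and Vnn1 (0.29), 13 of 14 with Creb3l3 (0.18) and 9 of 14 with Vnn3 (0.05), and their part in these correlations was not tested. Of the 9 stellate cell markers 8 had a value above 0 with Vnn3 (median 0.38), 8 with Vnn1 (0.29), 8 with Pdk4 (0.13) and 5 with Fgf21 (0.02), but 1 with Creb3l3 (-0.17); their part was not tested either. The mean standardised score of the 14 Kupffer cell and leukocyte markers ran from -0.75 to 1.33 in the low-fat and from -1.18 to 2.00 in the high-fat mice. Between diets 0 of them passed by limma, with 0 at an unadjusted p under 0.05 (rank sum test 0 and 1). After quantile normalisation 1 of them was called higher and 2 lower, and after median centring 0 and 4. The 7 hepatocyte markers, with mean scores from 11.49 to 14.82 beside an array median of 6.57, had medians of 0.11 with Pdk4, 0.06 with Fgf21 and -0.24 with Vnn1. Between diets 0 of the 7 passed by limma, with 1 at an unadjusted p under 0.05. By the rank sum test 1 passed after adjustment and 3 had an unadjusted p under 0.05. Ttr, transthyretin, nevertheless separated the diets completely, with the high-fat mouse higher in 0 of 100 pairs. Its standardised difference was -3.12 (-4.43 to -1.76, limma adjusted p = 0.224). Serpina1c, an antitrypsin, stood at -1.76 (-2.79 to -0.70, limma adjusted p = 0.871). Of the 7 markers 3 lay above 0, among them Apoa1 at 1.35 (0.35 to 2.31, limma adjusted p = 0.719). For Apoa1 the high-fat mouse was higher in 83 of 100 pairs. The within-diet SDs of Ttr, Serpina1c and Apoa1, 5.02e-07, 1.66e-07 and 4.33e-07, lay far below the median of 1.15e-05 over all probe sets. The limma test draws each variance toward a shared value, so at such SDs a clear separation can fail to pass. With probe sets averaged, and after centring on standardised values, 1 hepatocyte marker was called higher and 2 lower.

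**Figure D4:**
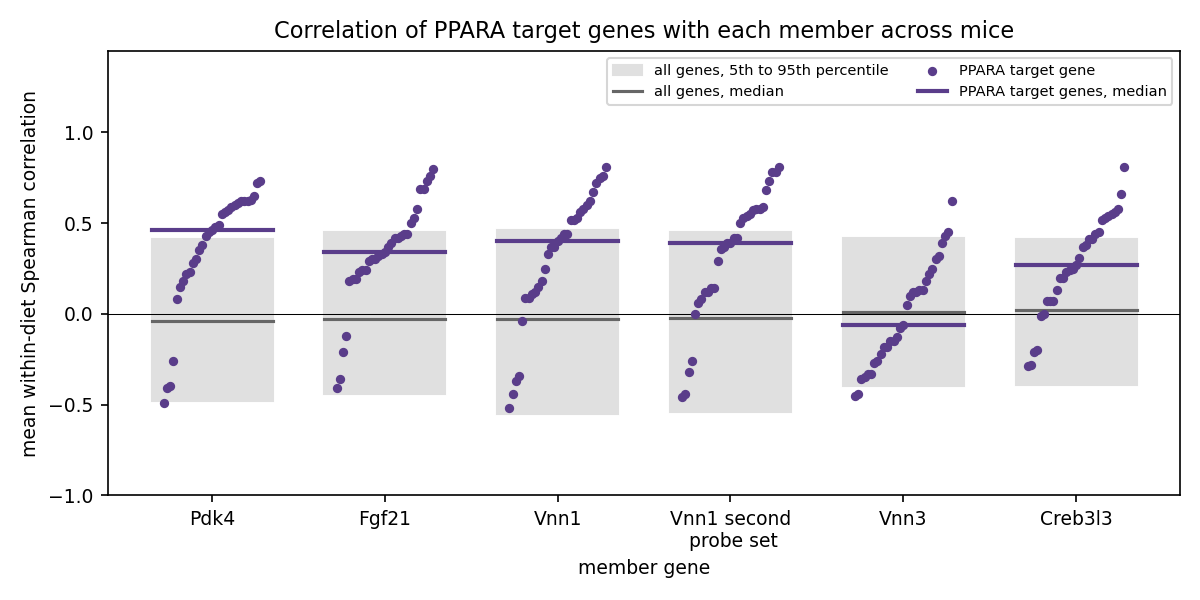
Mean of the low-fat and high-fat Spearman correlations (vertical axis, 10 mice per diet) of 31 PPARA target genes with each member probe set (horizontal axis); purple points are genes and purple bars their medians, grey boxes span the 5th to 95th percentile of all genes and grey bars their median. The target genes sit mostly above 0 for Pdk4 (median 0.46), Fgf21 (0.34), Vnn1 (0.40) and Creb3l3 (0.27), and around 0 for Vnn3 (-0.06).

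By the same measure, over 16438 genes that are not predicted models and 10 mice per diet, the genes most like Pdk4 were Grpel2, a cofactor of mitochondrial protein import (0.93), Rab30, a small GTPase (0.88), and Adig (0.82), where the 99th percentile of these genes was 0.58. Those most like Fgf21 were Pdpk1, the kinase that activates AKT (0.85), Yipf4 (0.83) and Sh3d19 (0.82). Vnn1 was followed most closely by Tlcd4 (0.88), E2f8, a repressor of cell cycle genes (0.87), and Crot, the peroxisomal carnitine octanoyltransferase (0.85). Vnn3 had Plaat3, a phospholipase and acyltransferase (0.85), Tlcd2 (0.81) and Pcbd2 (0.79), and Creb3l3 had Hsd17b4, the bifunctional enzyme of peroxisomal oxidation and itself on the PPARA target list (0.81), Flywch1 (0.77) and Arl2 (0.73). None of these 15 genes passed between diets by limma (lowest adjusted p = 0.106, for Tlcd2), and each was picked as an extreme of all genes ranked.

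Other facts of the arrays bear on all of these values. Median standardised scores of the arrays ran from -0.10 to 0.06 in the low-fat and from -0.05 to 0.08 in the high-fat mice, and 0 arrays held the values of another. Of the other cell type lists, bile duct, adipocyte and red blood cell markers gave 0 calls by limma, with 0 at an unadjusted p under 0.05 and 0 by the rank sum test. Stellate cell markers (median 0.68) and sinusoidal endothelial markers (median 0.64) also gave 0 calls by limma, with 2 of 9 and 0 of 7 at an unadjusted p under 0.05 and 0 adjusted by the rank sum test. The stellate median turned to -0.26 after quantile normalisation (0.28 after median centring, with 3 called lower), and with probe sets averaged 1 stellate marker was called higher; the endothelial median was 0.16 and, with 2 called lower, -0.67. Their mean standardised scores overlapped between diets: stellate markers ran from -0.91 to 1.06 in the low-fat and from -0.67 to 1.68 in the high-fat mice, and endothelial markers from -0.99 to 0.66 and from -0.17 to 1.25. Of 5 skeletal muscle markers 1 fell and 0 rose, with a median of -0.08. The marker that fell was Mylpf (-1.99, limma adjusted p = 0.0209, and 0.649 after quantile normalisation). Its mean score over both diets was 6.55, beside an array median of 6.57. The others were Acta1 at 0.80, Tnnt3 at 0.29, Ckm at -0.08 and Myh4 at -0.57. In a simulation with 10 arrays per diet, shifts of 1 SD were recovered in 0% of probe sets. Shifts of 2 SD were recovered in 40% and of 3 SD in 88%. The simulation shifted 200 of 45037 probe sets, whereas 1043 passed between the diets here. The unadjusted p needed to pass was therefore not the same, and the size at which a member would be called cannot be read from the simulation.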

How the data were processed

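Liver RNA of 20 mice (200 ng each) was labelled with a 3′ kit and hybridised to Affymetrix arrays, per the labels' protocols. The authors deposited a probe set score per array; their summarisation and normalisation are not given in the sources used here. Groups of the study that received maple syrup extract were not analysed here. The 64 control probe sets were left out, and 0 columns belonged to other samples. Genes were named from the platform annotation: 34945 probe sets had 1 symbol, 932 several and 9160 none. A gene was represented by its probe set with the highest mean score. The model was limma's lmFit with eBayes (limma 3.58.1, R 4.3.3), two-sided, with diet alone and every score kept, and the prior had 0.778 degrees of freedom. P-values were adjusted by Benjamini-Hochberg over 45037 probe sets for the members and over 18193 genes for the lists. Permutation tests used 100000 resamples (scipy 1.17.1), two-sided. On simulated data with 200 shifted probe sets the same steps made 2 false calls. Rank sum p-values were adjusted over all probe sets.

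The members and all lists were chosen with earlier results of these data known. From pathway lists with calls the text names those past the threshold, from the other pathway lists the 2 with the smallest p, and for each member the 3 genes of highest mean within-diet Spearman correlation. Pdk1, Pdk2, Pdk3, Pdhb, Ttr, Serpina1c, Klb, Fgfr1, Fgfr2, Fgfr4, Kl, Lpl, Apoa5, Apoa1, Apoc3, Mbtps2 and Ucp3 lie outside that rule. So do Ppara, Ehhadh, Cyp4a14, Angptl4, Cd36, Fitm1, Acot1, Fabp1, Hadha, Hadhb and Cideb. All of these were picked with their values in view. Alternatives were quantile normalisation, median centring, keeping the probe sets with the higher means, robust fitting with a variance trend, no moderation, a replicate block, array weights, the rank sum test, omission of cross-hybridising suffixes, averaging all probe sets of a gene, a threshold of 0.01 and the omission of each array. Centring on standardised values, the Spearman count and the diet-centred correlation over all mice were added after seeing the data.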

Additional observations from a re-analysis of the deposited data

Results flagged for a closer look

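A gap test was run on single mice in 58 groups of 10, over the members, the list genes past the threshold and the genes most like the members. A mouse stood far from the rest of its group in 2 of them; chance alone would mark about 1 in 20 groups. For Yipf4, among the genes most like Fgf21, the lowest mouse was low-fat replicate 9, whose gap to the next was 0.71 of the whole range, and the same mouse had the lowest low-fat Fgf21 score (-1.68). For Mylpf, a muscle marker, the lowest mouse was low-fat replicate 4 (0.528 of the range). No member probe set had such a mouse in either diet.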

How the results depend on the processing

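No member passed in any setting run except median centring, where 2 member probe sets (and 2 genes), Vnn3 and Creb3l3, were called lower. Fits that left out 1 array gave 0 members higher and 0 lower. Pdk4 changed sign after quantile normalisation (-0.00472), after centring on standardised values (-0.02) and with array weights (-0.12), and lay between -0.18 and 0.19 when 1 array was left out, below 0 in 10 of the 20 fits. Creb3l3 changed sign after quantile normalisation (-0.13) and median centring (-1.07), and lay between 1.14 and 1.62 when 1 array was left out. Over all probe sets 501 were higher and 542 lower. These counts were 300 and 238 with the replicate block, 300 and 327 without cross-hybridising suffixes, where fewer probe sets were tested, 134 and 138 at a threshold of 0.01, and 1148 and 1356 after centring on standardised values. The number lower was 3784 after quantile normalisation, which left 2676 probe sets without a test, and 38220 after median centring; the numbers higher there were 380 and 396. Those scalings moved the median standardised difference of all probe sets from 0.04 to -0.41 and -1.29. Leaving out 1 array gave 345 to 543 higher (345 without low-fat replicate 8) and 402 to 600 lower. Of the correlations between members 0 of 20 passed within diets, and when diet-centred over all mice 1 of 10 passed by Pearson and 2 by Spearman.

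The sample titles number the replicates without saying whether the numbers pair the mice, and correlations between arrays cannot settle it. Same-numbered mice correlated at -0.15 to 0.23, above 0.1 in 1 of 10 pairs. In 2 of 10 the same-numbered high-fat mouse was the closest match of the low-fat mouse. With the replicate block the standardised differences were 0.00937 for Pdk4, 0.38 for Fgf21, -0.19 and -0.31 for Vnn1, -0.75 for Vnn3 and 1.21 for Creb3l3, and 0 members passed; among the list genes the calls of Btd (adjusted p = 0.128) and Apoa4 (0.0535) were lost. The causes of these changes were not tested. The number of arrays and the uneven compression of scores limit what can be seen: intervals span close to 1 SD on either side.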
